A study of Mus musculus with 18 samples.

Results

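Cdx1 and Cdx2 are the caudal-type homeobox genes of the gut, and their levels were followed across 18 one-colour arrays of mouse cells. The members were the probes whose array gene name was Cdx1 or Cdx2, which gave 2 probes, 1 for each gene, among 41174 gene probes that named 19718 genes in all. The arrays held 6 cultures with 3 arrays each, all of C57BL/6 origin. MEF are mouse embryonic fibroblasts. iHep cells are hepatocyte-like cells made from MEFs. The iISC culture holds budding organoids whose source was induced intestinal stem cells, and the Crypt culture holds budding organoids from the crypts of adult intestine. The iFIPC culture mixes spheres with budding organoids, and its source was induced progenitor cells of fetal intestinal type. The FI culture has the same mix of forms, from progenitors of fetal intestine. The labels name no introduced factor, passage or day. Each iHep array carries a code of its own, which the labels do not explain, so that these arrays may come from different conversions. As background, published work on this conversion introduced Hnf4a, Foxa3, Gata6 and Cdx2 into fibroblasts, and Hnf4a with a Foxa factor for hepatocyte-like cells. The organoids hold all cell kinds that such cultures form, and in such bulk samples fewer cells of a type and less RNA per cell cannot be told apart.

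CDX proteins are transcription factors that bind short AT-rich sites through a homeodomain. In the embryo they act on Hox genes and on the growth of the trunk, downstream of Wnt and retinoid signals. In the adult Cdx2 is kept in the epithelium of small and large intestine, where it turns on genes of digestion and absorption, and loss of Cdx2 from gut epithelium is known to let stomach genes come on. Cdx1 is best known from the crypt compartment.

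The Cdx2 probe is a 60-base oligonucleotide that matches mm9 chr5:148112547-148112606 on the minus strand and starts at base 2014 of its transcript, beyond the coding region. Its first 30 bases are shown because this stretch decides which copies of the gene the arrays could see.
Cdx2 probe, first bases: gccttttaaaaagccttcttgatccatggg
Whether an introduced Cdx2 copy carries these bases was not tested, and no value here separates a copy put into the cells from the gene on its chromosome. The Cdx1 probe starts at base 575 of its transcript. Each probe was spotted once per array, and neither was saturated on any array.

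A level is given here as log2 of the processed signal minus the 75th percentile of that array, so that 0 is the signal at that percentile and each unit is a doubling. The percentile itself ranged from 714.1 to 1484.4 units of intensity over the arrays. Between 56.14% and 68.67% of gene probes were well above background per array. MEF arrays 2 and 3 differed by a spread of 0.073 log2 over probes, less than the 0.197 to 0.536 of the other 17 pairs within a group, and were averaged to 1 sample, so that MEF has n = 2. The MEF and iHep arrays were extracted with another software version and form a separate scan set, so that in every comparison of them with organoids the array set and the cell type cannot be told apart. All 10 spike-in control RNAs were brighter relative to the 75th percentile on the iHep arrays than on the organoid arrays, by 0.25 to 1.21 log2 with a median of 0.78.

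Cdx2 was dark in fibroblasts and bright in all 5 other cultures. In MEF the Cdx2 signals were 3.028, 2.74 and 3.501 intensity units, and it was well above background on 0 of 3 arrays. In iHep they were 6745, 4210 and 9397 units, with levels of 3.24, 2.31 and 3.59. The hepatocyte-like cells therefore carried a strong Cdx2 signal on every array, below every iISC, Crypt and FI array. The Cdx2 level was 5.11, 5.17 and 5.52 in the iISC organoids. It was 4.95, 5.20 and 5.22 in the Crypt organoids, where the upper values fell inside the iISC range. In the iFIPC organoids it was 3.77, 4.41 and 3.58 for arrays 1, 2 and 3. In the FI organoids it was 6.24, 5.80 and 5.97, so that every FI array lay above every array of the other cultures, and every iFIPC array lay below every other organoid array.

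The group means of Cdx2 ran from 6.00 ± 0.22 (SD, n = 3) in FI through 5.27 ± 0.22 in iISC, 5.12 ± 0.15 in Crypt and 3.92 ± 0.43 in iFIPC to 3.05 ± 0.66 in iHep. MEF stood last at -8.46 ± 0.58 (n = 2). Among neighbours in this order, iISC and Crypt did not differ beyond their spread, and iFIPC and iHep overlapped. The FI and iISC arrays did not overlap, but their difference was not called.

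Cdx1 separated the cultures differently, since it was dark in iHep as well as in MEF. Its signals were 3.276, 2.683 and 3.02 units in MEF and 2.491, 2.503 and 6.31 in iHep, with 0 of 3 arrays well above background in either. In the organoids Cdx1 levels were 0.82, 0.49 and 0.54 in iISC arrays 1 to 3 and 0.94, 0.75 and 0.89 in Crypt. They were -0.01, 0.52 and 0.30 in iFIPC and 0.77, 0.20 and -0.11 in FI. The 12 organoid arrays thus ran from -0.11 to 0.94, and the iFIPC and FI arrays overlapped. The Cdx1 means were 0.86 ± 0.10 (SD, n = 3) in Crypt, 0.62 ± 0.18 in iISC, 0.29 ± 0.44 in FI, 0.27 ± 0.27 in iFIPC, -7.84 ± 0.78 in iHep and -8.47 ± 0.74 in MEF (n = 2), and no adjacent organoid pair in this order differed beyond its spread. The Cdx1 probe gave no signal above background on the iHep arrays where the Cdx2 probe was bright.

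**Figure D1:**
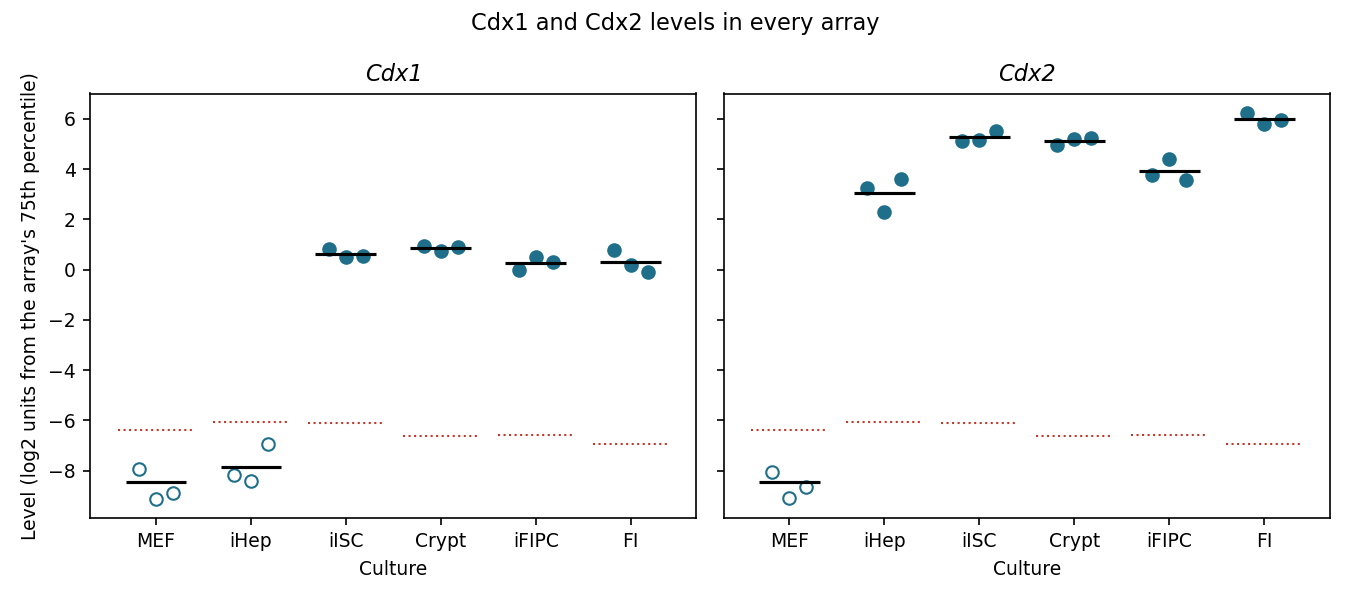
Levels of Cdx1 (left) and Cdx2 (right) on each of the 18 arrays, as log2 units from the 75th percentile of the array, by culture. Filled points were well above background, open points were not, black bars are group means (in MEF over n = 2, with arrays 2 and 3 averaged) and dotted lines are the mean dimmest signal called well above background. Cdx2 is filled in iHep and in all organoids, and Cdx1 in the organoids.

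The first comparison asks which cultures gained caudal gene signal over the fibroblasts they can be made from. A gene was called where limma, fitted across all genes, gave p under 0.05 after Benjamini-Hochberg adjustment together with a log2 difference of 1 or more. Where a gene was dark on every array of a group, only a bound of the fold is given, set against the dimmest signal that counted as above background. Cdx2 was at least 615-fold higher in iHep than in MEF (adjusted p = 1.13e-10), in a comparison where 27.6% of all genes tested were called. Against MEF it was at least 1130-fold higher in iFIPC (adjusted p = 2.06e-11), where 43.5% were called. It was at least 2860-fold higher in iISC (adjusted p = 7.94e-12), where 48.4% were called. It was at least 2590-fold higher in Crypt (adjusted p = 8.27e-12), where 50.3% were called, and at least 4770-fold higher in FI (adjusted p = 6.99e-12), where 47% were called. On the only slide that held both, MEF array 1 was dark for Cdx2 and the 3 iHep arrays were bright. These bounds rest on the processed signal. Under normexp background correction with an offset of 50, which raises dark signals, the differences from MEF were 6.77 log2 in iHep and 7.68 to 9.75 in the organoids, below the bounds and still called.

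Cdx1 was at least 89.7-fold higher in iFIPC than in MEF (adjusted p = 1.52e-09). The bounds against MEF were 114-fold for iISC (adjusted p = 8.54e-10), 90.9-fold for FI (1.29e-09) and 135-fold for Crypt (5.85e-10) in the limma fit. Under normexp the Cdx1 differences were 4.16 to 4.72 log2 against MEF, again below the bounds and called. Cdx1 was not tested between iHep and MEF, where both groups were below background. Large shares of the genome were called in each of these comparisons, so a call alone did not set the caudal genes apart.

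Against iHep, Cdx1 was at least 79.9-fold higher in iFIPC (limma adjusted p = 2.2e-09), where 34% of genes tested were called. The bound was 102-fold in iISC, where 39.8% were called, 81-fold in FI, where 38.4% were called, and 120-fold in Crypt, where 41.9% were called, and the normexp differences were 4.23 to 4.79 log2. Cdx2 did not follow that split. It was higher than in iHep by 2.22 log2 in iISC (limma adjusted p = 5.17e-05), by 2.08 in Crypt (7.99e-05) and by 2.96 in FI (4.69e-06). The Cdx2 arrays did not overlap in these 3 comparisons, as held for 67.6%, 68.8% and 67% of all genes tested. Between iFIPC and iHep it differed by only 0.87 ± 0.32 (SE; adjusted p = 0.0314), under the size called, and the arrays overlapped. Without iHep array 3 this difference was 1.14 and without iFIPC array 3 it was 1.04, and both then passed. Spike-ins ran the other way, brighter on the iHep arrays, and their part in these differences was not tested.

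Within the organoids, which share 1 scan set, the design sets induced organoids beside those grown from intestine. In the fetal-type pair Cdx2 was 2.08 ± 0.22 log2 (SE) lower in iFIPC than in FI, a 4.24-fold difference, with limma adjusted p = 0.000663 and no overlap between the arrays. Of all genes tested 10.3% were called there, and the groups did not overlap for 47%. In the adult-type pair Cdx2 differed by 0.14 ± 0.22 between iISC and Crypt, with a 95% interval from -0.35 to 0.64 (limma adjusted p = 0.763), in a comparison where 2.98% were called. The difference between these differences was itself called, at 2.23 ± 0.31 log2 (95% interval 1.53 to 2.93, limma adjusted p = 0.0082), with 4.44% of genes called. With slide as a fixed term it was 1.92 and no longer called (adjusted p = 0.0792). Array slides were not balanced over cultures, and no slide held both iFIPC and FI.

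Across types, Cdx2 was 1.20 ± 0.22 log2 lower in iFIPC than in Crypt (limma adjusted p = 0.0042), where 14.4% of genes were called. Within slide 5, which held iFIPC arrays 1 and 3 and Crypt arrays 2 and 3, the difference was -1.53. Cdx2 was 1.35 ± 0.22 higher in iISC than in iFIPC (adjusted p = 0.00578), where 7.42% were called and 38.3% of genes did not overlap. On slide 3 the iISC arrays sat with iFIPC array 2, the brightest iFIPC array for Cdx2, and the difference there was 0.86. With slide as a fixed term the estimate was also 0.86 and the call was lost (adjusted p = 0.127). Crypt lay below FI by 0.88 ± 0.22 (adjusted p = 0.0284) with no overlap, which missed the size of 1, where 8.65% of genes were called and 35.8% did not overlap. With quantile normalization this difference was -1.01 and passed. iISC lay 0.74 ± 0.22 below FI (adjusted p = 0.0714), where 4.84% were called and 34% of genes did not overlap.

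Cdx1 passed in none of these 6 organoid comparisons. The estimates were -0.24 ± 0.22 log2 (SE) for iISC against Crypt (limma adjusted p = 0.59) and -0.02 for iFIPC against FI (adjusted p = 0.962), with a 95% interval from -0.52 to 0.48. The widest gap was iFIPC against Crypt at -0.59 (adjusted p = 0.0819), where the arrays did not overlap, as was the case for 46.1% of genes tested. Crypt against FI gave 0.57 (adjusted p = 0.116). The difference between the adult-type and fetal-type differences was -0.22 ± 0.32 for Cdx1 (adjusted p = 0.685). The data thus held a called difference for Cdx2 between these pairs and none for Cdx1. Whether the 2 genes differed from each other in this was not tested.

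**Figure D2:**
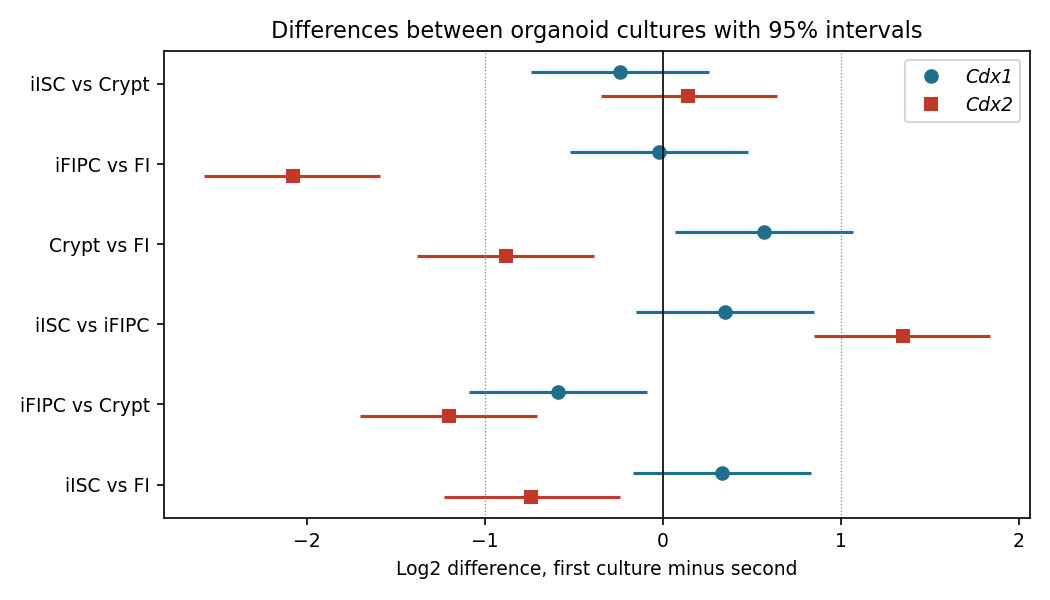
Log2 difference of Cdx1 (circles) and Cdx2 (squares) for the 6 pairs of organoid cultures, first culture minus second, with 95% intervals from the limma fit on 12 samples. Dotted lines mark the size of 1 that a call needed, and the Cdx2 interval of iFIPC against FI around -2.08 lies wholly beyond it.

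The other relatives of these genes stayed dim or moved differently. Cdx4, the caudal gene of the early embryo, was well above background on 1 of 18 arrays, iFIPC array 2, at a level of -4.10. Pdx1, the ParaHox gene of pancreas and duodenum that neighbours Cdx2, was dark in MEF and at least 22.2-fold higher in iHep (limma adjusted p = 0.00575). Pdx1 levels averaged -1.75 in iHep, -1.45 in Crypt, -1.60 in iFIPC and -1.44 in FI. In iISC they were -5.80, -2.97 and -7.96 with 1 of 3 arrays above background, and no organoid comparison of Pdx1 passed. Gsx1 ran from -1.16 in MEF to -2.55 in FI, and Gsx2 was above background on 1 array.

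Of the measured genes next to Cdx2, Pdx1 (above) was dark in MEF and above background in iHep, Crypt, iFIPC and FI. Urad was above background on 1 array and the receptor gene Flt3 averaged between -6.44 and -5.92 in all 6 cultures. Beside Cdx1, the receptor gene Pdgfrb, a fibroblast marker, averaged 4.67 in MEF and 2.50 in iHep, against -1.68 to -4.21 in the organoids. Slc6a7, a proline transporter gene, was higher in every organoid culture than in MEF and iHep on average, at -0.24 in iISC, -1.36 in Crypt, -3.09 in iFIPC and -1.26 in FI, against -5.44 in MEF and -6.30 in iHep. Csf1r averaged between -7.08 and -1.47.

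A list of 20 genes known as CDX targets in intestine was drawn up, and all 20 were measured. In iHep, where Cdx2 was bright and Cdx1 dark, 9 of 14 tested targets were higher than in MEF and 0 lower, where 11.9% of all genes were called higher and 15.8% lower. Of these 14, 5 were dark in MEF and entered the test through iHep alone, so that they could only come out higher, and 4 of the other 9 were higher. Vil1, the gene of the microvillus protein villin, reached 4.99 ± 1.22 (SD, n = 3) in iHep and was at least 2360-fold above MEF (limma adjusted p = 3.49e-10). Lgals4, a gut galectin gene, reached 7.02 ± 0.69, against 7.93 to 8.29 in the organoids, and differed from MEF by 9.36 log2. Hnf4a, a nuclear receptor gene of liver and gut, was at least 51.8-fold higher. Published work introduced Hnf4a itself, and whether its signal came from an introduced copy was not tested. By contrast Sis, Muc2, Abcc2 and Slc15a1 were above background on 0 of 3 iHep arrays. Hepatocyte-like cells thus carried part of the list only.

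In iFIPC 19 of 20 targets were above background on every array. Of 19 tested targets, 17 were higher and 0 lower in iFIPC than in MEF, where 20.2% of all genes were higher and 23.3% lower. Against iHep 16 of 19 were higher and 0 lower in iFIPC, where 17.4% of all genes were higher and 16.6% lower, and 16 of 20 were higher and 0 lower in iISC, where 20.4% were higher and 19.4% lower. In FI 15 of 20 were higher than in iHep and 2, Klf4 and Furin, lower, where 20.8% of all genes were higher and 17.6% lower. In Crypt 16 of 20 were higher and 2, Klf4 and Isx, lower, where 21.3% were higher and 20.6% lower. Targets dark in MEF or iHep could again only come out higher. Sis, which encodes the brush border enzyme sucrase-isomaltase, was at least 5110-fold higher in iFIPC than in iHep (limma adjusted p = 4.13e-09). Its levels were 4.87, 7.30 and 6.63 in iFIPC arrays 1 to 3 and 5.93, 3.85 and 6.30 in FI, which overlap, while Cdx2 did not overlap there. Muc2, the goblet cell mucin gene, was at least 151-fold and Abcc2, a transporter gene, at least 160-fold higher in iFIPC than in iHep.

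Between iFIPC and FI, where Cdx2 fell by 2.08 log2, 2 targets were higher, 2 lower and 16 not called, where 5.45% of all genes were higher and 4.82% lower, with a list median of 0.04 against -0.08 over all genes. Isx, a homeobox gene of the intestine, rose by 5.81 ± 0.78 (SE; limma adjusted p = 0.00185), with levels of 2.17, 3.47 and 3.55 in iFIPC and -1.12, -3.34 and -3.78 in FI. Klf4, a zinc finger gene, rose by 2.02 (adjusted p = 0.00115). Gcg, the proglucagon gene of gut endocrine cells, fell by 3.79 (adjusted p = 0.0279). Lct, the lactase gene, fell by 4.66 ± 1.48 (adjusted p = 0.0487), with iFIPC at -3.81, 0.58 and -2.42 and FI at 2.43, 1.23 and 4.66. Without the filter on dim probes 1 target was lower in place of 2.

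Between iISC and Crypt, where 1.81% of all genes were higher and 1.16% lower, 1 of 19 targets was higher, Klf4 by 1.44 (limma adjusted p = 0.0141), and 1 lower, Alpi, an alkaline phosphatase gene of enterocytes, by 2.21 (adjusted p = 0.0364). Between iISC and iFIPC, where 3% of all genes were higher and 4.42% lower, 1 of 20 was higher, Gcg by 3.86, and 1 lower, Isx by 8.70. Isx was above background on 2 of 3 iISC arrays. It entered that test through iFIPC alone, and its size rests partly on background. None of the 20 targets passed in the test of the difference between the adult-type and fetal-type differences by limma with adjustment, while 5 had an unadjusted p under 0.05. Of all genes 4.44% were called there, so that the count lies near that share.

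**Figure D3:**
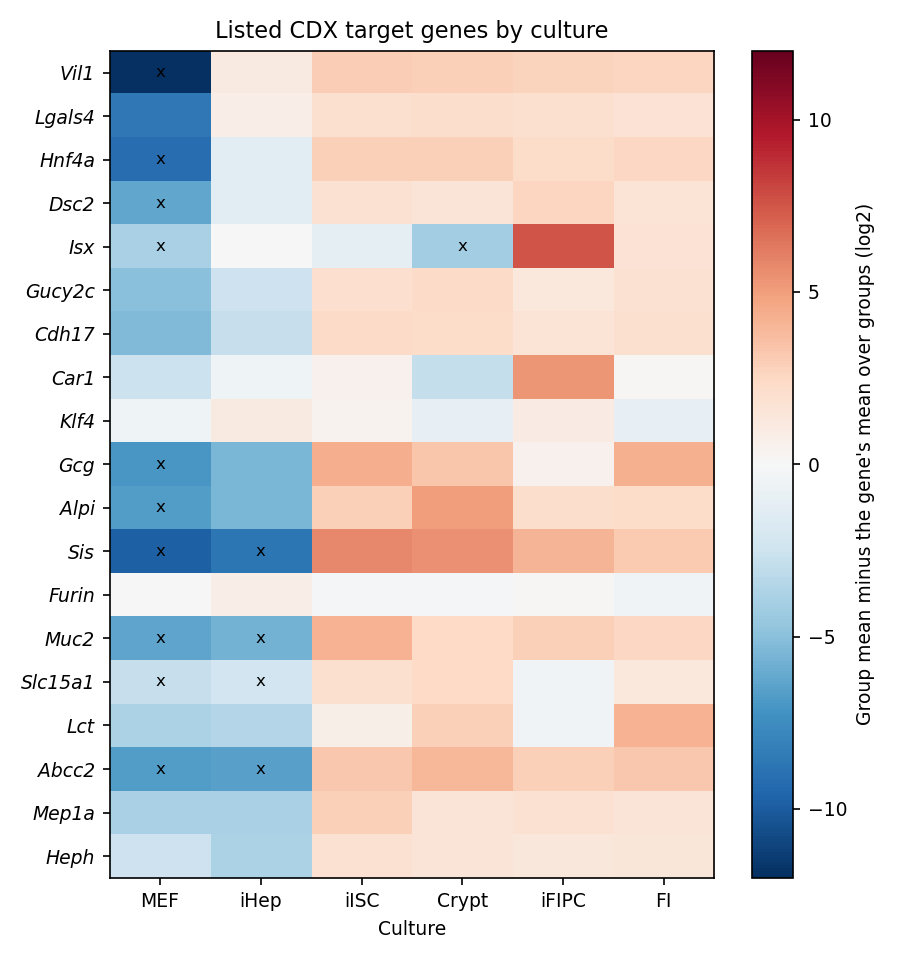
Mean levels of 19 of the 20 listed CDX target genes in the 6 cultures, each minus the mean of that gene over the cultures (log2; red higher, blue lower). A cross marks a culture in which no array had the gene well above background, as for Sis and Muc2 in both MEF and iHep.

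Target promoters were searched for TTTATG, a short form of the CDX site, on both strands in the 250 bases before each start site in the RefSeq table of GRCm38.p6. It was in 2994 of 27025 promoters (11.1%) and in those of 2 of the 14 listed targets with an entry (14.3%), which were Sis and Lct. Both are digestive enzyme genes, and both are printed because they show where the match lies relative to the start, with the match in capitals. The Sis window is chr3:72967864-72968113 on the minus strand and the first base of the match is at position -43 from the start.
Sis promoter: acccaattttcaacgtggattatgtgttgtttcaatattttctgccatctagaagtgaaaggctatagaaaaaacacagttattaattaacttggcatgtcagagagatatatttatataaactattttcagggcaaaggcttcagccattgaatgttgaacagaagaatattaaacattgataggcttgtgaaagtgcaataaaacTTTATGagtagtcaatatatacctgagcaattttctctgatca
The Lct window is chr1:128328319-128328568 on the minus strand, with the first base of the match at -31.
Lct promoter: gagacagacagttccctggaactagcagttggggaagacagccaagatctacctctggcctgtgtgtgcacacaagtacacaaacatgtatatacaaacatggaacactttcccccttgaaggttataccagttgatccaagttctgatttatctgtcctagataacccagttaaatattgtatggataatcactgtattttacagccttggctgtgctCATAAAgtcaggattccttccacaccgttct
The share among targets was near that of all promoters. The Cdx2 window held no match. A match describes letters and is no evidence of binding.

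Stomach genes were the next list, since loss of Cdx2 in gut epithelium is known to release them, and 15 of 16 listed were measured. Between iFIPC and FI 6 of 12 tested were higher and 1 lower, where 5.45% of all genes were higher and 4.82% lower, with a list median of 3.32 against -0.08. Gkn2, a secreted gastrokine gene of stomach surface cells, had levels of 6.76, 2.62 and 3.04 in iFIPC and -9.19, -8.34 and -5.47 in FI, with 1 FI array above background. Every iFIPC array lay far above every FI array. The difference of Gkn2 was called (limma adjusted p = 0.00107), and no size is given because most FI signals were not above background. Gkn2 and Pgc entered the test through iFIPC alone. Tff1, a trefoil peptide gene of stomach mucus cells, stood at 7.50, 7.38 and 4.77 in iFIPC and at -4.68, -3.28 and -3.74 in FI, a difference of 10.45 ± 0.94 (adjusted p = 0.000227). Ctse, a cathepsin gene, rose by 5.11 and Vsig1, a junction protein gene of stomach, by 4.80. Atp4a, a subunit of the acid pump of parietal cells, fell by 2.18. The number higher was 4 to 7 when single iFIPC or FI arrays were left out.

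The stomach genes were not called in the adult-type pair, with 0 higher and 0 lower of 10 tested between iISC and Crypt by limma. Of all genes 1.81% were higher and 1.16% lower there, so that this count lies near the share over all genes. Of the 10, 2 had an unadjusted p under 0.05 in the same fit. Between Crypt and FI, where 2.96% of all genes were higher and 5.69% lower, 0 of 11 were called in either direction by limma, where 0 had an unadjusted p under 0.05. Tff1 was -4.07, -4.68 and -1.44 in iISC and -2.50, -3.59 and -3.86 in Crypt. The difference between the pairs was called for 4 of 12 genes, all negative, where 2.78% of all genes were called higher and 1.65% lower. These were Tff1 at -10.53, Anxa10 at -7.56 and Ctse at -5.61 (adult-type minus fetal-type, log2), and Gkn2, for which no size is given because it was above background on 0 of 3 iISC arrays and on 1 of 3 in Crypt and in FI.

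Gkn2 and Tff1 were high in iHep as well. Gkn2 levels ran from 5.77 to 7.01 on the iHep arrays, at least 7180-fold above MEF (limma adjusted p = 2.29e-06), and Tff1 was higher than in MEF by 11.83 log2. In all 4 of 12 tested stomach genes were higher in iHep than in MEF and 1, Sox2, lower, where 11.9% of all genes were higher and 15.8% lower. Gkn2, Tff1, Anxa10, Pgc, Atp4a and Vsig1 entered that test through iHep alone, which favoured a higher call. Sox2 entered through MEF alone, which favoured a lower call. The summed stomach gene level was 5.87 to 8.58 in iFIPC and 6.73 to 8.71 in iHep, against at most 2.96 on any other array.

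**Figure D4:**
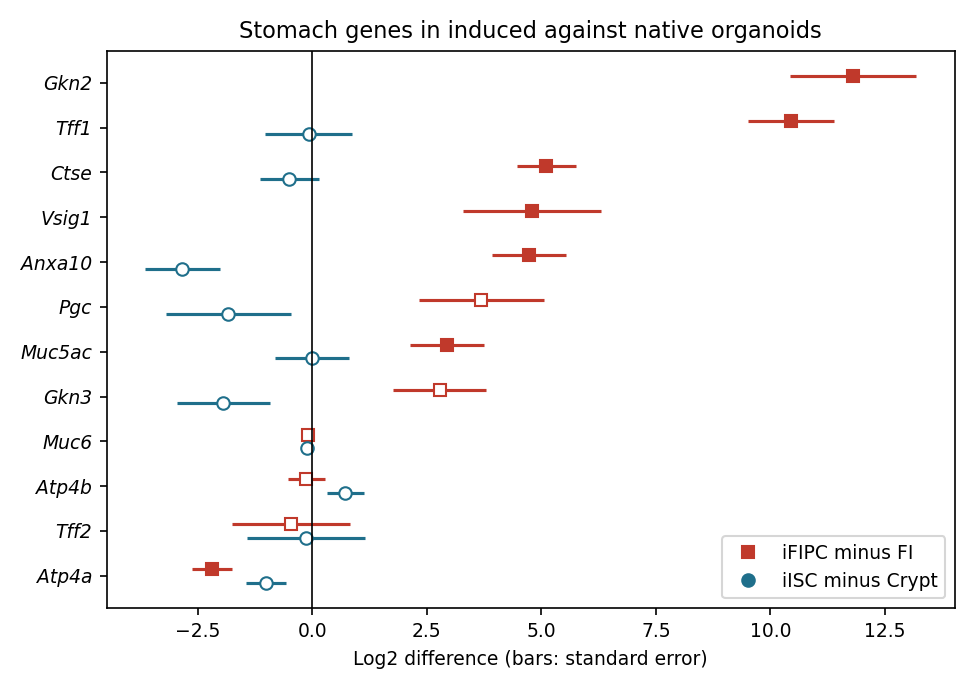
Log2 difference of stomach genes in iFIPC minus FI (squares) and iISC minus Crypt (circles), with standard errors, for the 12 genes tested in the first pair. Filled symbols were called, and the squares of Gkn2 and of Tff1, the latter at 10.45, lie far right while no circle is filled. The position of the Gkn2 square rests on FI signals mostly not above background.

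Factors that act with CDX2 in gut endoderm were listed next, 16 in all. Between iFIPC and FI 1 was higher and 4 lower, where 5.45% of all genes were higher and 4.82% lower, with a list median of -0.57 against -0.08. Foxa1, a forkhead factor that opens endodermal chromatin, was -2.25, -4.18 and -3.50 in iFIPC and 0.62, 0.38 and 0.57 in FI, a difference of -3.84 ± 0.39 (SE; limma adjusted p = 0.000555). Gata4 fell by 3.38 and Gata6 by 2.01, both GATA zinc finger factors of endoderm, and Onecut3 fell by 1.41. Isx was the member that rose. Foxa1 fell in the adult-type pair as well, by 3.53 between iISC and Crypt (adjusted p = 0.00216), where Cdx2 did not pass. Onecut2 fell there by 5.27 and Onecut3 by 1.97, so that 3 of 15 were lower and 0 higher, where 1.16% of all genes were lower and 1.81% higher. In iHep 7 of 11 were higher than in MEF and 0 lower, where 11.9% of all genes were higher and 15.8% lower. Foxa3 was dark in MEF and iHep and averaged -0.05 to 0.15 in the organoids. Hnf4a, Foxa3 and Gata6 are among the factors introduced in published work, and introduced copies of them were not told apart here.

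Upstream of the caudal genes, the Wnt and retinoid list held 21 genes. Between iFIPC and FI 5 of 18 were higher and 0 lower, where 5.45% of all genes were higher and 4.82% lower, with a list median of 0.25 against -0.08. Aldh1a3, which makes retinoic acid, rose by 6.26 (limma adjusted p = 0.00722), Cyp26b1, which breaks it down, by 2.87, the receptor gene Rarb by 2.39 and Aldh1a2 by 1.76. Aldh1a2 was above background on 1 of 3 FI arrays. It entered that test through iFIPC alone, and its size rests partly on background. Between iISC and iFIPC 0 of 18 were higher and 4 lower, where 3% of all genes were higher and 4.42% lower, and the 4 were Aldh1a3, Cyp26b1, Rarb and Aldh1a2. Of these, Cyp26b1, Rarb and Aldh1a2 entered the test through iFIPC alone, which favoured a lower call. Between iISC and Crypt 2 of 15 were higher and 0 lower, where 1.81% of all genes were higher and 1.16% lower. These were Aldh1a3, at least 16.1-fold, and the Wnt effector gene Lef1, by 3.33. Both entered that test through iISC alone, which favoured a higher call. Between Crypt and FI 1 of 17 was higher, Aldh1a1 by 3.89, and 3 were lower, where 2.96% of all genes were higher and 5.69% lower. The lower genes were Lef1 by 3.21, Tcf7l1 by 2.07 and Rarb, at least 3.68-fold. Among them Lef1 and Rarb entered the test through FI alone, which favoured a lower call.

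Downstream, 5 of 11 tested trunk Hox genes (13 listed) were higher in iFIPC than in FI and 0 lower, where 5.45% of all genes were higher and 4.82% lower. Hoxa10, Hoxb9, Hoxc6, Hoxc9 and Hoxd8 entered this test through iFIPC alone, which favoured a higher call. Hoxb5 and Hoxb7 entered through FI alone, which favoured a lower call. In the adult-type pair 4 of 5 tested were higher in iISC than in Crypt and 0 lower, where 1.81% of all genes were higher and 1.16% lower. Of the 5, Hoxa10 entered through iISC alone. The other 8 listed genes were not above background on every array of either culture and were not tested. Hoxa10 averaged 2.40 in iFIPC, 1.74 in iISC and 0.38 in MEF, against -6.70 in Crypt and -7.85 in FI with 1 of 3 arrays above background in each. It was called higher in iFIPC than in FI (limma adjusted p = 0.000303). No size is given because most FI signals of Hoxa10 were not above background. Hoxa9 rose by 4.53 in the fetal-type and by 3.48 in the adult-type pair. The other 6 tested in the fetal-type pair were not called, among them Hoxb5, which averaged -5.22 in iFIPC and -2.88 in FI, and Hoxb7, which averaged -3.91 and -1.13.

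Marker lists bore on what the cultures held. All 12 epithelium markers were above background on every organoid array, and their summed levels were 9.80 to 9.95 in iFIPC and 9.13 to 9.51 in FI, sums in which the brightest genes weigh most. Summed fibroblast markers were 9.80 to 9.93 in MEF, 5.84 to 7.41 in iHep, -0.61 to 2.12 in iFIPC and at most 0.34 in the other organoids. Of them 2 of 7 tested were higher in iFIPC than in FI, where 5.45% of all genes were higher and 4.82% lower. These were Twist1, at least 19.9-fold, and Dcn, at least 24.3-fold, both dark on every FI array. Twist1, Dcn, Col1a1, Col3a1 and Prrx1 entered the test through iFIPC alone, and 1 of the 12 fibroblast markers was dark on every iFIPC array. The same shares of all genes apply to the immune and hepatocyte counts that follow. Immune cell markers summed to -1.80 to 0.02 in iFIPC and -2.82 to -2.44 in FI, and 1 of 4 tested, Cd68, was higher by 2.20. Of 8 tested hepatocyte markers 2 were higher in iFIPC than in FI, Trf by 2.63 and Ttr by 1.96, and 2 lower, Afp by 3.03 and Ambp by 2.27. The part of these markers in the Cdx2, stomach gene and Hox results was not tested. The 11 measured hepatocyte markers summed to 8.15 to 10.34 in iHep, above every other culture. The iHep cells also showed 10 of 12 epithelium markers on every array, but MEF already showed 7 of the 12. Of 11 tested, 8 were higher in iHep than in MEF and 1 lower, where 11.9% of all genes were higher and 15.8% lower. Lyz1 averaged 3.47 in MEF and -4.06 in iHep. Epcam, Cdh1, Vil1 and Olfm4 entered through iHep alone, which favoured a higher call, and Lgr5 through MEF alone.

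The genes most like each member were taken by the root mean square difference of centred log2 levels. Over 17 samples Jakmip1 was nearest to Cdx1 at 0.276, followed by Sgpp2, Pcbd1, Scml4 and Slc5a9. Jakmip1 was dark in MEF and iHep and averaged -0.10 to 0.33 in the organoids. For Cdx2 the nearest were Muc13 at 0.72, Eps8l3 at 0.72, Grb7 at 0.729, Lgals4 at 0.836 and Misp at 0.912. Muc13, an epithelial membrane mucin gene, averaged 2.57 in iHep and 4.13 to 4.63 in the organoids. Cdx2 stood 2316th of 15556 genes in likeness to Cdx1, and Cdx1 stood 482nd in likeness to Cdx2, both at 2.55.

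Over the 12 organoid samples, where levels vary less, the genes nearest to Cdx2 were Kiss1 at 0.302, Igf2bp2 at 0.302, Ccdc138, C8g and Cyct. Igf2bp2, an RNA-binding protein gene, was also highest in FI and lowest in iFIPC, with means of 2.59 in FI, 2.17 in Crypt, 2.12 in iISC and 0.86 in iFIPC. The nearest to Cdx1 were Otof at 0.169, Pink1, Rxra at 0.175, Wap and Rab11fip3. The samples share arrays and scaling, and the likeness carries no test.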

How the data were processed

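The series holds 18 one-colour Agilent Whole Mouse Genome arrays of Cy3-labelled RNA. The titles of all 6 MEF and iHep arrays are marked as a re-analysis, and the organoid titles are not. The deposited file of each array holds the processed signal, an intensity on the linear scale. Per the file headers this signal is after background subtraction and with no scaling between arrays. The deposited flags for spots well above background, saturated or outlying are of the other kind of column and are 0 or 1. Per the file headers Feature Extraction 9.5.1.1 was used for the 6 MEF and iHep arrays and 10.7.1.1 for the 12 organoid arrays, while the submitters' processing notes name 9.5.1.1. The authors' series matrix holds intensity values with a median of 59.32 in every column, which matched a quantile normalization made here (r = 1), and served as an alternative.

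Of 41174 gene probes, 65 lacked a value on some array after 62 to 107 outlier spots per array were left out. Probe names came from accessions (25001 probes), symbols (5960) or synonyms (1767) of the RefSeq gene table, and 8446 had none. The brightest probe stood for a gene. Levels were log2 of the processed signal minus the 75th percentile over gene probes. Tests used limma 3.58.1 in R 4.3.3 (lmFit, eBayes, two-sided, Benjamini-Hochberg over all genes tested), over 17 samples for comparisons with MEF or iHep and over the 12 organoid samples otherwise, on genes that every array of 1 compared group or more showed well above background; the scripts were tested on simulated data. Precision is limited by how few arrays there were, and 3 against 3 samples cannot go below an exact permutation p of 0.1. Nothing says that replicates came from separate animals or cultures, so p-values measure the spread between these samples, which may be technical.

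Named genes were both members, the other caudal and ParaHox genes, up to 4 members of each list per comparison with the greatest called change plus any called against the list, the 3 nearest measured genes on each side, and the 5 most similar genes, leaving out predicted genes and clones. The members and lists were chosen with earlier results of these data known. Alternatives were quantile scaling, normexp background correction, the authors' matrix, 2 other filters, the mean of all probes, 18 separate arrays, slide as a term, a block or a split, the replicate number as a block, and leaving out each sample. Same-numbered samples of different organoid groups did not deviate together (r -0.40 to 0.34). Values of 1 listed gene are not reported here. Sequences came from RefSeq tables and from the probes of the array files.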

Additional observations from a re-analysis of the deposited data

Results flagged for a closer look

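The Cdx2 difference between induced and native organoids was not the same in the adult-type and the fetal-type pair. Induced minus native gave 0.14 log2 for iISC against Crypt and -2.08 for iFIPC against FI, and the test of the difference itself, in the limma fit, gave 2.23 (adjusted p = 0.0082). With slide as a fixed term this difference kept its direction but was no longer called, as given above. The 3 iFIPC arrays lay below all FI arrays, while iISC and Crypt arrays overlapped.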

How the results depend on the processing

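Among the alternative values for comparisons of the caudal genes, 456 kept their side of the threshold, 4 became called, 3 lost the call and 0 reversed among called results. Of the values kept on their side, 4 that were never called changed sign or went to 0. Cdx2 between Crypt and FI was -1.01 (adjusted p = 0.0121) under quantile normalization and -1.01 (0.0121) with the authors' matrix, and passed. Between iFIPC and iHep Cdx2 passed without iHep array 3 (1.14, 0.00989) and without iFIPC array 3 (1.04, 0.0276), with a leave-one-out range of 0.51 to 1.14. With slide as a fixed term Cdx2 was 0.86 (adjusted p = 0.127) between iISC and iFIPC and 1.92 (0.0792) in the difference between pairs, and within slide 3 it was 0.86 (0.433) with 1 iFIPC array; fewer samples enter there. The cause of the other changes was not tested. Without the filter on dim probes 0 listed targets were higher in iISC than in iFIPC in place of 1. The Cdx2 level in Crypt was 4.95 under quantile normalization in place of 5.12. Among results not called, Cdx2 between iISC and Crypt was -0.67 with the slide term, and Cdx1 between iFIPC and FI was 0.12 without iFIPC array 1 and 0.22 without FI array 1. With the replicate number as a block Cdx2 between iFIPC and FI was -2.08 (adjusted p = 0.00366) and between the pairs 2.23 (0.0248), and it changed no call of either gene. Left out one at a time, arrays gave -2.33 to -1.92 for Cdx2 in iFIPC against FI and 2.06 to 2.47 for the difference between pairs.

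Counts of all genes called moved more. With slide as a fixed term they were 26 in place of 405 for iISC against Crypt, 99 in place of 1477 for iFIPC against FI, 258 in place of 1022 for iISC against iFIPC, 265 in place of 1228 for Crypt against FI, 6 in place of 684 for iISC against FI, 52 in place of 644 for the difference between pairs and 1596 in place of 3981 for iHep against MEF. With slide as a random block they were 256, 355 and 363 for iISC against Crypt, iISC against FI and the difference between pairs. Within single slides they were 1587 for iHep against MEF, 38 for iISC against iFIPC and 24 for Crypt against FI. Under the stricter filter they were 4613 in place of 7165 for iISC and 4977 in place of 7559 for Crypt against MEF, 211 for iISC against Crypt, 597 for iISC against iFIPC, 452 for iISC against FI and 399 for the difference between pairs. Leaving out arrays gave 122 (Crypt 3), 130 (Crypt 2) and 231 (iISC 3) for iISC against Crypt; 674 (iISC 2) for iISC against iFIPC; 201 (FI 2), 355 (iISC 3) and 405 (iISC 2) for iISC against FI; 857 (FI 2) for iFIPC against FI; 668 (Crypt 2), 710 (Crypt 3) and 752 (FI 2) for Crypt against FI; and 231 (Crypt 3), 237 (Crypt 2), 264 (FI 2), 350 (FI 1), 415 (iFIPC 2), 428 (iISC 2) and 1474 (Crypt 1) for the difference between pairs. The stricter filter gave no value for either gene against MEF or for Cdx1 against iHep, and a slide term or split could not be fitted across array sets. Signals near background limit the MEF and iHep values of Cdx1 to bounds.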
